A study of Mus musculus with 20 samples.

Results

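The 9 genes described here belong to calcium signalling, and a calcium signal starts development in the fertilized egg. Calm2 and Calm3 encode calmodulin, Itpr1 the calcium release channel and Camk2g a calmodulin-dependent kinase. Trpm7, Cacna1h and Orai1 encode channels of the outer membrane, Stim1 the sensor of the calcium store and Atp2b1 a calcium pump. Whether each of them takes part in egg activation was not tested. The 9 genes were chosen by name, and each was found as a row in all 5 of the authors' deposited comparison tables, 9 of 24411 genes.

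The study followed RNA through the start of mouse development, in 20 untreated samples that were each a small batch of 10 to 15 oocytes or embryos. The B6CASTF1 hybrids were sampled at 3 stages, with 3 samples of G1 zygotes, 3 of G2 zygotes and 2 of 2-cell embryos in G2. The C57BL/6J strain was sampled as MII eggs, G1 zygotes, G2 zygotes and 2-cell embryos in G2 (3 samples each). The authors' names for the C57BL/6J comparisons call these groups WT, and their names for the B6CASTF1 comparisons give no genotype. MII eggs wait in the second meiotic metaphase for a sperm, and G1 and G2 are the cell cycle phases before and after DNA replication. In every group the oocytes had matured in culture for 12 hours after release from the maturation block by dbcAMP. Fertilization took place in vitro, and the embryos then grew in KSOM medium under 5% oxygen. The sources used here give neither the direction of the hybrid cross nor the ages of the animals. The labels do not say whether samples of 1 group had different mothers, so a p-value covers only the spread among these samples, and that spread may be technical.

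At fertilization the sperm brings a phospholipase C that makes inositol trisphosphate in the egg, and this messenger opens the release channel encoded by Itpr1. Calcium then leaves the endoplasmic reticulum in repeated waves, pumps such as Atp2b1 carry it out of the cell, and channels of the outer membrane let it back in to refill the store. Calmodulin binds the released calcium and switches on the kinase encoded by Camk2g, which frees the egg from its meiotic arrest.

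The deposited tables hold comparisons between consecutive stages and no values per sample. Sample depth is therefore unknown, and no statement can be made on whether single samples of 2 stages overlapped. Each table gives a log2 fold change of the later over the earlier stage with its standard error (SE) and an adjusted p from the authors' DESeq2 Wald test, and a gene was called changed at an adjusted p under 0.05. Among genes whose mean normalized count reached 100, the median SE was smaller in B6CASTF1 (0.35 and 0.40) than in C57BL/6J (0.80, 0.80 and 0.87). A level for each stage was worked out from the strain's mean normalized count and the fold changes, and is called the implied level. It has no spread of its own. The strains were normalized apart, so implied levels are not compared between them.

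The libraries carried strong oocyte signal. All 10 oocyte markers were above 0 in both strains, with a summed implied level of 186179 to 391127 over the B6CASTF1 stages and 309759 to 536187 over the C57BL/6J stages. Dppa3 made up much of this, with a mean of 115323 of a summed 282809 in B6CASTF1 and 299296 of 433446 in C57BL/6J. The 10 markers of cumulus and granulosa cells summed to 1429 to 2572 in B6CASTF1 and 302 to 1609 in C57BL/6J, and Cyp19a1 had the highest mean of them in each strain. At 0 were 2 of these 10 in B6CASTF1 (Amh and Foxl2) and 3 in C57BL/6J (Amh, Inha and Inhba). The 10 sperm and testis markers summed to 117 to 1028 in B6CASTF1 and 101 to 566 in C57BL/6J, highest at the 2-cell stage. Ldhc had the highest mean of these 10 in each strain, and 3 of the 10 were at 0 in each. Plcz1, the sperm phospholipase C itself, was among those at 0 in both. The 4 blood markers summed to 4.34 to 2866 in B6CASTF1 and 0.451 to 3827 in C57BL/6J, also highest at the 2-cell stage and with Hba-a1 as the highest, while Hbb-bs was at 0 in both strains. These sums differed between stages, and their part in the results was not tested.

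Calm2 and Calm3 encode an identical protein of 149 residues from coding sequences of 447 bases that differ at many codons, and the stretch for codons 21 to 40 shows how reads can be told apart. The sequences are from GENCODE M21 on build GRCm38. Capitals mark the bases at which the 2 genes differ.
Calm2: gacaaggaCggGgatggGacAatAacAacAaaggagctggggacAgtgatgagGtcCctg
Calm3: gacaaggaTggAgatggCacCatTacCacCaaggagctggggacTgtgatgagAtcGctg
Of these 60 bases, 10 differ without a change of amino acid. Over the whole coding sequence Calm2 and Calm3 are 82.6% identical, and the longest run of bases they share is 17. Pseudogenes are closer: Calm2 shares a run of at least 50 bases with 3 processed pseudogenes (Gm14480, Gm15720 and Gm7308) and Calm3 with 1 (Gm5881), and none of the 4 has a row in the tables. The sources used here do not say how reads shared with them were counted.

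A few 3′ ends are shown because the libraries were primed with oligo-dT at the poly(A) tail. The polyadenylation signal AATAAA was searched on the transcript strand in the last 150 bases of the longest coding transcript. It stands there in 7 of the 9 genes, against 66.0% of the 18652 genes with a 3′ UTR of at least 150 bases, and Trpm7 and Orai1 hold the variant ATTAAA. Capitals mark the signal or its variant.
Itpr1: ctaaaaatatttAATAAAcgatgcagaatc
Trpm7: tctttaaaagaaATTAAAtttattcttgtt
Orai1: aaaagaaaccttcagggatactaATTAAAa
With the variant counted, all 9 genes hold a match in this window, against 80.3% of the same genes. The match of Orai1 starts only 7 bases from the annotated end, nearer than that of any other of the 9. Whether a match serves as a signal for that end was not tested.

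Calm2, on chromosome 17 (87433412 to 87446935, minus strand), was called changed at every step measured. Its implied level in B6CASTF1 was 1345 normalized counts in G1 zygotes, 7229 in G2 zygotes and 40446 in 2-cell embryos. In C57BL/6J it was 14479.6 in MII eggs, 5002 in G1 zygotes, 30852 in G2 zygotes and 125064 in 2-cell embryos. The level was thus lowest in G1 zygotes and highest in 2-cell embryos in both strains. In bulk samples such as these, fewer cells that hold an RNA and less of it per cell cannot be told apart. Priming was at the poly(A) tail and counts were normalized within each strain, so all levels given here are relative levels of RNA with such a tail. Whether tail length or total RNA changed between stages was not tested.

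In the authors' deposited table of C57BL/6J, Calm2 fell by 1.53 in G1 zygotes against MII eggs on the log2 scale (SE 0.24, adjusted p = 4.7e-08). It was the only one of the 8 genes with a p to be called there, and 2.75% of all genes tested were called in that comparison (1.62% higher, 1.12% lower). The authors' deposited tables then gave a rise in G2 over G1 zygotes of 2.43 (SE 0.18, adjusted p = 2.1e-37) in B6CASTF1 and of 2.62 (SE 0.24, adjusted p = 2.3e-24) in C57BL/6J. At the 2-cell stage Calm2 rose again over G2 zygotes in the authors' deposited tables, by 2.48 (SE 0.20, adjusted p = 2.4e-33) in B6CASTF1 and by 2.02 (SE 0.24, adjusted p = 5.5e-16) in C57BL/6J. Added up, the steps from G1 zygotes to 2-cell embryos came to 30.1-fold in B6CASTF1 and 25.0-fold in C57BL/6J. Against MII eggs the 2-cell level was 8.64-fold higher in C57BL/6J. These sums are descriptions without a test. Calm2 ranked 202nd of 19130 genes by mean normalized count in B6CASTF1 and 46th of 17734 in C57BL/6J.

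**Figure D1:**
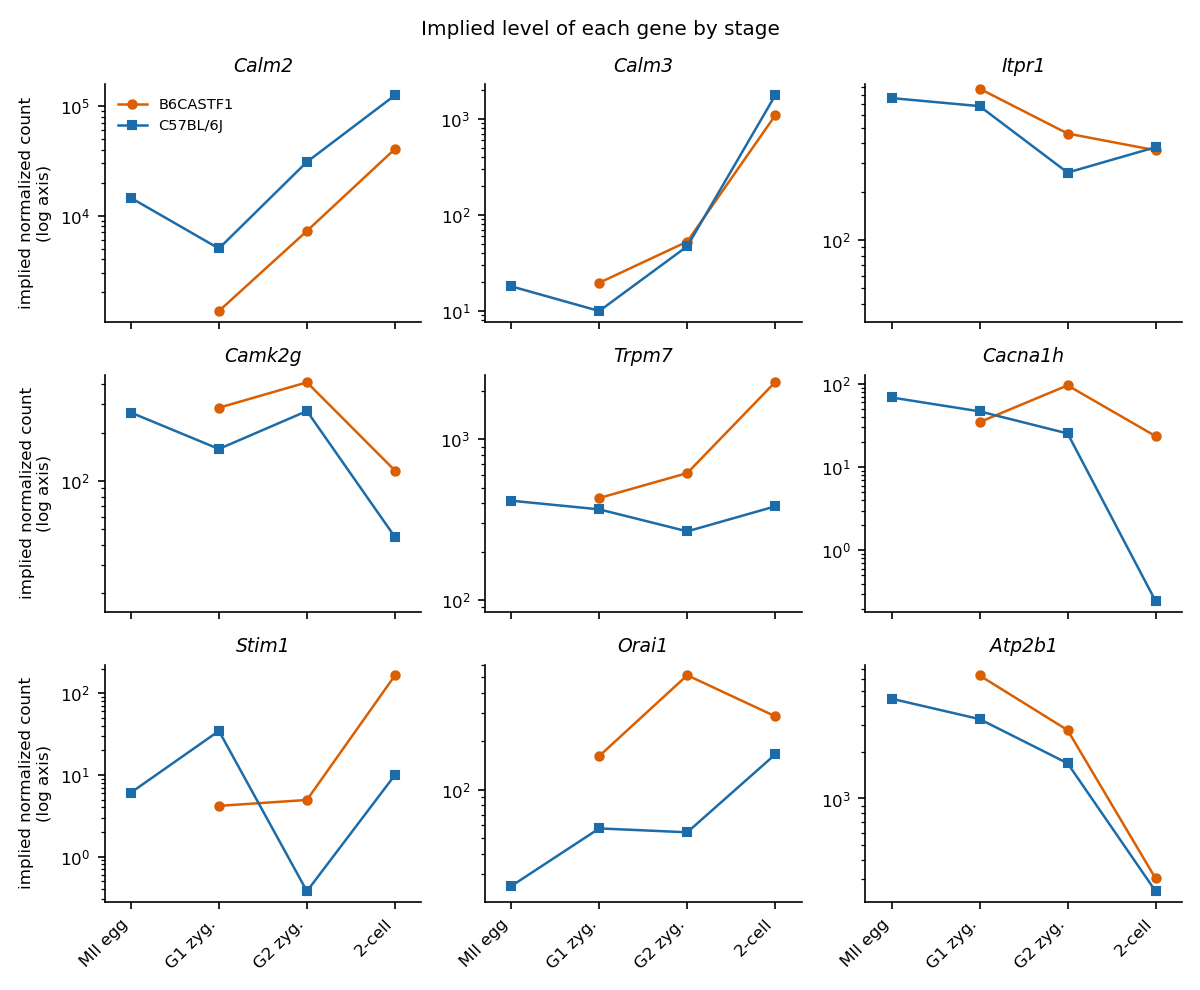
Implied level of each gene by stage, in normalized counts on a log axis that differs between panels, for B6CASTF1 (circles) and C57BL/6J (squares). Points carry no spread because the tables hold none per stage. Calm2 is lowest in G1 zygotes and highest in 2-cell embryos in both strains, and Calm3 is higher at the 2-cell stage than at any earlier one. The implied level of Atp2b1 declines at each stage, though in C57BL/6J neither step before the 2-cell stage was called.

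Calm3, on chromosome 7 (16915379 to 16924114, minus strand), was scarce until the 2-cell stage. Its fitted rise there was larger than that of Calm2 in both strains, a difference that was not tested. The implied level of Calm3 was 19.5, 52.5 and 1085 normalized counts in G1 zygotes, G2 zygotes and 2-cell embryos of B6CASTF1. In C57BL/6J it was 18.0, 9.93, 46.9 and 1753 in MII eggs, G1 zygotes, G2 zygotes and 2-cell embryos. The authors' deposited tables gave a 2-cell rise over G2 zygotes of 4.37 (SE 0.77, adjusted p = 4.9e-08) in B6CASTF1, which is 20.7-fold. In C57BL/6J they gave 5.22 (SE 1.25, adjusted p = 0.00012), which is 37.4-fold. The 95% intervals were 2.86 to 5.88 in B6CASTF1 and 2.78 to 7.67 in C57BL/6J on the log2 scale, so these folds have no firm size. The step from G1 to G2 was not called in either strain, at 1.43 (SE 0.72, adjusted p = 0.16) in B6CASTF1 and 2.24 (SE 1.27, adjusted p = 0.34) in C57BL/6J per the authors' deposited tables. The C57BL/6J value for G1 zygotes against MII eggs was -0.85 (SE 1.28, adjusted p = 1) per the authors' deposited table, also not called.

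Set per kb of transcript, Calm2 stood far above Calm3 at each stage. In 2-cell embryos Calm2 had 33565 per kb and Calm3 474 in B6CASTF1, and Calm2 had 103787 and Calm3 765 in C57BL/6J. In G1 zygotes Calm2 had 1116 per kb and Calm3 8.53 in B6CASTF1, and Calm2 had 4151 and Calm3 4.34 in C57BL/6J. These levels rest on 1 transcript length per gene and carry no test.

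Itpr1, on chromosome 6 (108213096 to 108551109, plus strand), encodes the channel that releases calcium when inositol trisphosphate binds it. It had an implied level of 876, 460 and 362 normalized counts in G1 zygotes, G2 zygotes and 2-cell embryos of B6CASTF1. In C57BL/6J it was 766, 682, 263 and 379 in MII eggs, G1 zygotes, G2 zygotes and 2-cell embryos. The implied level in G2 zygotes was thus lower than in G1 zygotes in both strains. The fall from G1 was called in B6CASTF1, by 0.93 (SE 0.25, adjusted p = 0.0017) per the authors' deposited table. This call was lost with the SE raised 1.5 times (adjusted p = 0.13), with Bonferroni adjustment and where a log2 fold change of at least 1 was required. In C57BL/6J the authors' deposited table gave -1.37 (SE 0.69, unadjusted p = 0.045, adjusted p = 0.25), which missed the threshold. Neither 2-cell step was called in the authors' deposited tables (-0.35, SE 0.28, adjusted p = 0.28 in B6CASTF1 and 0.52, SE 0.69, adjusted p = 0.55 in C57BL/6J). Around fertilization, G1 zygotes against MII eggs gave -0.17 (SE 0.68, adjusted p = 1) per the authors' deposited table, with a 95% interval of -1.51 to 1.17. Gene models on the opposite strand overlap exons of Itpr1 (Gm44040 by 108 bases and Gm44101 by 181), and Smart-seq2 libraries do not mark strand.

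Camk2g, on chromosome 14 (20734875 to 20794088, minus strand), encodes the calmodulin-dependent kinase of egg activation. Its implied level was 286, 412 and 116 normalized counts in G1 zygotes, G2 zygotes and 2-cell embryos of B6CASTF1, and 267, 159, 273 and 44.9 in MII eggs, G1 zygotes, G2 zygotes and 2-cell embryos of C57BL/6J. The 2-cell level was the lowest in both strains. The authors' deposited table called the 2-cell step lower in B6CASTF1, where Camk2g fell by 1.82 (SE 0.51, adjusted p = 0.00072) against G2 zygotes. For C57BL/6J the authors' deposited table gave -2.60 (SE 1.53, adjusted p = 0.15), which was not called. No earlier step was called in the authors' deposited tables. The log2 fold changes were -0.75 (SE 1.53) for G1 zygotes against MII eggs, and 0.53 (SE 0.45) in B6CASTF1 and 0.78 (SE 1.53) in C57BL/6J for G2 against G1 zygotes.

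Among the channels of the outer membrane, Trpm7 and Orai1 were each called in B6CASTF1, and Cacna1h in C57BL/6J. Trpm7 (chromosome 2, 126791565 to 126876230, minus strand) encodes a divalent cation channel with a kinase domain. Trpm7 had an implied level of 431, 616 and 2270.1 normalized counts in G1 zygotes, G2 zygotes and 2-cell embryos of B6CASTF1, and 415, 366, 267 and 382 in MII eggs, G1 zygotes, G2 zygotes and 2-cell embryos of C57BL/6J. The 2-cell embryos of B6CASTF1 stood above the 2 earlier stages, and the C57BL/6J stages lay between 267 and 415. The authors' deposited tables gave a 2-cell rise over G2 zygotes of 1.88 (SE 0.31, adjusted p = 3.2e-09) in B6CASTF1 and a value of 0.52 (SE 1.38, adjusted p = 0.79) in C57BL/6J. The other 3 steps were not called in the authors' deposited tables. G2 against G1 zygotes gave 0.52 (SE 0.28, adjusted p = 0.2) in B6CASTF1 and -0.45 (SE 1.38) in C57BL/6J, and G1 zygotes against MII eggs gave -0.18 (SE 1.38).

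Orai1 (chromosome 5, 123015074 to 123030456, plus strand) encodes the pore of store-operated calcium entry. Implied levels of Orai1 were 162, 516 and 286 normalized counts in G1 zygotes, G2 zygotes and 2-cell embryos of B6CASTF1. In C57BL/6J it was 25.1, 57.4, 54.3 and 166 in MII eggs, G1 zygotes, G2 zygotes and 2-cell embryos. Its implied level was highest in G2 zygotes in B6CASTF1 and in 2-cell embryos in C57BL/6J, but a difference between the strains was not shown. In B6CASTF1 the authors' deposited table called G2 zygotes higher than G1 zygotes by 1.67 (SE 0.38, adjusted p = 0.00015). The next step of B6CASTF1 was -0.85 (SE 0.42, adjusted p = 0.069) per the authors' deposited table, and it passed the threshold when the fold changes were recentred (-1.07, adjusted p = 0.02). No step of C57BL/6J was called in the authors' deposited tables, at 1.19 (SE 1.70), -0.08 (SE 1.69) and 1.61 (SE 1.69) in stage order.

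Cacna1h (chromosome 17, 25374285 to 25433783, minus strand) encodes the pore of a T-type calcium channel of the mouse egg. Cacna1h had an implied level of 34.7, 95.7 and 23.5 normalized counts in G1 zygotes, G2 zygotes and 2-cell embryos of B6CASTF1, and 68.5, 46.6, 25.3 and 0.246 in MII eggs, G1 zygotes, G2 zygotes and 2-cell embryos of C57BL/6J. In C57BL/6J it was thus near 0 at the 2-cell stage, so that its fitted fold change there has no firm size. The authors' deposited tables gave a 2-cell fall in C57BL/6J (-6.69, SE 1.94, adjusted p = 0.0018) and an uncalled value of -2.03 in B6CASTF1 (SE 1.23, adjusted p = 0.14). None of its other 3 steps was called in the authors' deposited tables, at 1.46 (SE 1.10) for G2 against G1 zygotes of B6CASTF1, and at -0.55 (SE 1.54) and -0.88 (SE 1.55) for the 2 earlier steps of C57BL/6J. The C57BL/6J call was lost with the SE raised 1.5 times (adjusted p = 0.068). The exons of Cacna1h overlap those of Tpsg1 on the opposite strand by 158 bases, and a run of 50 bases is shared with Cacna1i, so reads there could be counted to either gene.

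Stim1 (chromosome 7, 102267806 to 102437319, plus strand) encodes the sensor that opens Orai1 when the store is empty. Its implied level was 4.18, 4.94 and 166 normalized counts in G1 zygotes, G2 zygotes and 2-cell embryos of B6CASTF1. The authors' deposited table called the 2-cell rise over G2 zygotes in B6CASTF1, at 5.07 (SE 1.42, adjusted p = 0.00087), which is 33.5-fold. The level in G2 zygotes was low and the 95% interval was 2.28 to 7.86 on the log2 scale, so this fold has no firm size. The step from G1 to G2 zygotes of B6CASTF1 was 0.24 (SE 1.35, adjusted p = 0.96) per the authors' deposited table. In C57BL/6J the implied level was 6.08, 34.6, 0.376 and 9.98 in stage order, and the authors' deposited tables list no p for Stim1 in that strain. DESeq2 leaves a p out where a single sample holds an extreme count. The C57BL/6J fold changes of 2.51 (SE 3.97), -6.53 (SE 4.13) and 4.73 (SE 4.14) per the authors' deposited tables are therefore given with no call.

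Atp2b1 (chromosome 10, 98914406 to 99026143, plus strand) encodes a calcium pump of the plasma membrane. It shares a run of at least 50 bases with the unprocessed pseudogene Gm29808, which has no row in the tables. Its implied level was 6334, 2790.2 and 301 normalized counts in G1 zygotes, G2 zygotes and 2-cell embryos of B6CASTF1, and 4469, 3291, 1696 and 249 in MII eggs, G1 zygotes, G2 zygotes and 2-cell embryos of C57BL/6J. Each stage was lower than the one before it in both strains. In B6CASTF1 the authors' deposited tables called both steps, with a level in G2 zygotes of 0.441 times that in G1 zygotes (SE 0.15 on the log2 scale, adjusted p = 4.3e-13) and a log2 fold change in 2-cell embryos against G2 zygotes of -3.21 (SE 0.18, adjusted p = 1.2e-70). In C57BL/6J the authors' deposited table called the 2-cell step, at -2.77 (SE 0.98, adjusted p = 0.011), and this call was lost with the SE raised 1.5 times (adjusted p = 0.15). The earlier C57BL/6J steps were -0.44 (SE 0.97, adjusted p = 1) and -0.96 (SE 0.97, adjusted p = 0.7) per the authors' deposited tables. From G1 zygotes to 2-cell embryos the summed steps came to -4.39 in B6CASTF1 and -3.73 in C57BL/6J, given without a test.

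**Figure D2:**
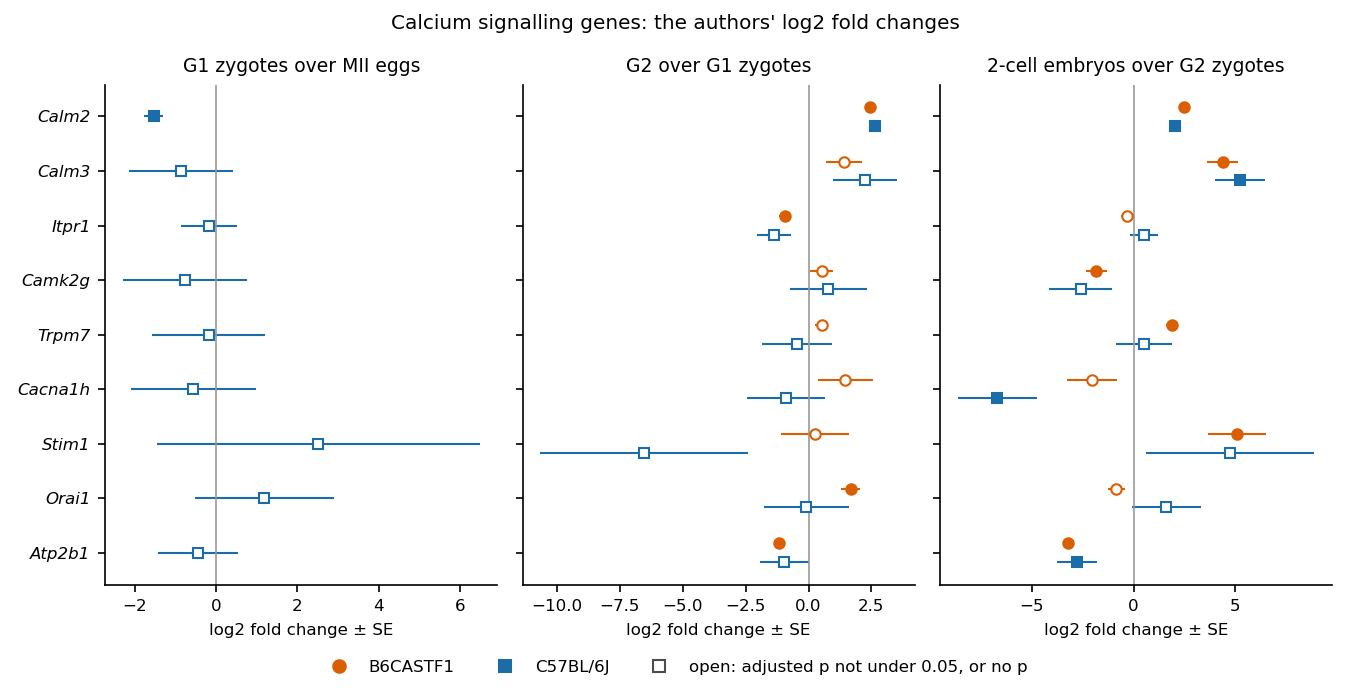
The authors' log2 fold changes with their SE for the 9 genes, for G1 zygotes over MII eggs (left), G2 over G1 zygotes (middle) and 2-cell embryos over G2 zygotes (right), in B6CASTF1 (circles) and C57BL/6J (squares). Filled symbols have an adjusted p under 0.05, and the horizontal axis differs between panels. Calm2 is filled in all 5 comparisons, below 0 at the first step and above 0 at the later ones.

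Counted over the 9 genes, 1 of the 8 with a p was called in G1 zygotes against MII eggs and 1 of 8 in G2 against G1 zygotes of C57BL/6J, in each case Calm2, while 7.88% of all genes tested were called in the second of these comparisons (5.01% higher, 2.87% lower). In G2 against G1 zygotes of B6CASTF1, 4 of 9 were called (Calm2 and Orai1 higher, Itpr1 and Atp2b1 lower), and 19.3% of all genes tested were (9.63% higher, 9.63% lower). In 2-cell embryos against G2 zygotes of B6CASTF1, 6 of 9 were called (Calm2, Calm3, Trpm7 and Stim1 higher, Camk2g and Atp2b1 lower), close to the 59.9% of all genes tested (33.1% higher, 26.8% lower). The same step in C57BL/6J called 4 of 8 (Calm2 and Calm3 higher, Cacna1h and Atp2b1 lower), again close to the 50.4% of all genes tested (25.0% higher, 25.3% lower). The median log2 fold change over the 9 genes at that step was -0.35 in B6CASTF1, where all genes tested had 0.55, and 0.52 over the 8 genes with a p in C57BL/6J, where all genes tested had 0.17. Consecutive comparisons share the samples of a stage, so they are not independent of each other.

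The order of the genes by implied level per kb changed with stage. Calm2 was first and Atp2b1 second among the 9 in every egg and zygote group of both strains. In 2-cell embryos Calm3 was second in both strains, with 474 per kb in B6CASTF1 and 765 in C57BL/6J. Atp2b1 then stood at 42.2 per kb in B6CASTF1 and 34.9 in C57BL/6J, behind Trpm7 and Orai1 in both. Stim1 or Cacna1h was last in every group except the G1 zygotes of C57BL/6J, where Calm3 was, at 4.34 per kb.

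The difference between the strains' fold changes was tested for the 8 genes with a p in both (B6CASTF1 minus C57BL/6J, a normal test on the authors' SE, adjusted by Benjamini-Hochberg over all genes tested in both strains). None of the 8 passed at either step, by this test alone, while 1.92% of all genes differed at the step from G1 to G2 and 16.6% at the 2-cell step. At an unadjusted p under 0.05 the count was 0 at the first of these steps and 1 at the second. That gene was Cacna1h, whose 2-cell steps of -2.03 in B6CASTF1 and -6.69 in C57BL/6J differed by 4.66 (SE 2.30, unadjusted p = 0.043, adjusted p = 0.16). The Calm2 steps differed by -0.20 (95% interval -0.79 to 0.39, adjusted p = 1) from G1 to G2 and by 0.46 (95% interval -0.15 to 1.08, adjusted p = 0.35) at the 2-cell stage. The Calm3 intervals were wider, at -3.67 to 2.05 and -3.73 to 2.02. For Trpm7, called in B6CASTF1 at the 2-cell stage and not in C57BL/6J, the difference was 1.37 (SE 1.42, adjusted p = 0.59), so a difference between the strains was not shown. Nor was it for Orai1, at -2.46 (SE 1.74, adjusted p = 0.38) at the 2-cell step.

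Around the 9 genes, 123 other genes of calcium signalling were listed by function, and 121 of them had a row in the tables. In G1 zygotes against MII eggs, 1 of the 81 tested was called, the mitochondrial outer membrane channel gene Vdac3, which rose by 1.92 (SE 0.47, adjusted p = 0.0032) per the authors' deposited table. With the SE raised 1.5 times or with Bonferroni adjustment the count in this comparison was 0. With an adjusted p under 0.1 or a mean count of at least 100 it was 2. From G1 to G2, 9 of 94 were higher and 13 lower in B6CASTF1, and 2 of 80 were higher and 2 lower in C57BL/6J. Called in either direction were thus 23.4% in B6CASTF1 and 5% in C57BL/6J, against 19.3% and 7.88% of all genes tested. At the 2-cell step, 27 of 104 were higher and 33 lower in B6CASTF1, and 11 of 78 were higher and 26 lower in C57BL/6J. The shares called, 57.7% in B6CASTF1 and 47.4% in C57BL/6J, were near the 59.9% and 50.4% of all genes tested. The median at that step was 0.13 in B6CASTF1 and -0.20 in C57BL/6J, against the medians of all genes tested given above.

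Itpr2, a second inositol trisphosphate receptor, had the smallest adjusted p of the release channel list at the 2-cell step in both strains. At the 2-cell stage it fell in both strains, with log2 fold changes against G2 zygotes of -5.79 (SE 0.36, adjusted p = 6.3e-58) in B6CASTF1 and -4.11 (SE 0.38, adjusted p = 1.5e-25) in C57BL/6J per the authors' deposited tables. In 2-cell embryos its implied level per kb was 8.82 in B6CASTF1 and 40.3 in C57BL/6J, where that of Itpr1 was 36.7 and 38.4. In G2 zygotes it was 489 per kb in B6CASTF1 and 696 in C57BL/6J, where that of Itpr1 was 46.7 and 26.7. Itpr2 thus stood well above Itpr1 in G2 zygotes of both strains. In 2-cell embryos it lay below Itpr1 in B6CASTF1 and at a like level in C57BL/6J, and below Ahcyl1, an inhibitor of the receptor, with 142 per kb in B6CASTF1 and 65.5 in C57BL/6J. Of the release channel list, 2 of 10 were higher and 3 lower at the 2-cell stage in B6CASTF1, and 1 of 8 higher and 1 lower in C57BL/6J. Called were 50% of the list in B6CASTF1 and 25% in C57BL/6J, against 59.9% and 50.4% of all genes tested. Ryr1, a ryanodine receptor, was the one higher in C57BL/6J (10.67, SE 2.21, adjusted p = 7.2e-06 per the authors' deposited table). Its implied level in G2 zygotes of C57BL/6J was 0.377 normalized counts, so that this fold has no firm size.

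The entry channel list had 4 of 24 genes higher and 8 lower at the 2-cell stage in B6CASTF1, and 1 of 15 higher and 8 lower in C57BL/6J. The shares called were 50% in B6CASTF1 and 60% in C57BL/6J, against 59.9% and 50.4% of all genes tested. Stim2, the paralogue of Stim1, was called lower in both, and fell by 3.76 (SE 0.65, adjusted p = 3.2e-08) in B6CASTF1 per the authors' deposited table. Its implied level per kb was 178, 95.5 and 7.06 in G1 zygotes, G2 zygotes and 2-cell embryos of B6CASTF1, while that of Stim1 was 0.958, 1.13 and 38.0. In 2-cell embryos of C57BL/6J, Stim1 stood at 2.29 per kb and Stim2 at 4.93. The order is not firm there, because Stim1 has no p in that strain and its 2-cell fold change had an SE of 4.14. Saraf, an inhibitor of store-operated entry, was the only gene of the list called from G1 to G2 in B6CASTF1, and fell by 3.93 (SE 0.23, adjusted p = 8.8e-63) per the authors' deposited table. Among the voltage-gated channel genes, the subunit gene Cacnb2 fell by 9.44 (SE 1.28, adjusted p = 2.1e-12) in 2-cell embryos of C57BL/6J in the authors' deposited table. Its implied level there was 0.481 normalized counts, so the size is not firm, and the authors' deposited table of B6CASTF1 gave -3.75 (SE 0.76, adjusted p = 2.9e-06).

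The phospholipase C list had genes called in both directions. Plcd4 rose by 10.05 (SE 0.53, adjusted p = 1.5e-79) in B6CASTF1 and by 9.76 (SE 1.07, adjusted p = 1.8e-18) in C57BL/6J at the 2-cell stage in the authors' deposited tables. The implied level of Plcd4 in G2 zygotes was 3.93 normalized counts in B6CASTF1 and 1.40 in C57BL/6J, so that these folds have no firm size either. Plce1 fell by 5.45 (SE 0.27, adjusted p = 1.3e-89) at that step of B6CASTF1 in the authors' deposited table and was called lower in C57BL/6J too. In all, 2 of 8 were higher and 2 lower in B6CASTF1, and 1 of 6 higher and 3 lower in C57BL/6J, or 50% called in B6CASTF1 and 66.7% in C57BL/6J against 59.9% and 50.4% of all genes tested.

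Among the calmodulin-dependent enzymes and regulators, 3 of 19 were higher and 3 lower at the 2-cell stage in B6CASTF1, and 0 of 12 higher and 2 lower in C57BL/6J. That is 31.6% called in B6CASTF1 and 16.7% in C57BL/6J, against 59.9% and 50.4% of all genes tested. Ppp3ca, a catalytic subunit of calcineurin, was called lower in both strains, and fell by 2.19 (SE 0.90, adjusted p = 0.032) in C57BL/6J per the authors' deposited table. Ppp3r1, the regulatory subunit of calcineurin, fell by 2.27 (SE 0.26, adjusted p = 5.8e-17) in B6CASTF1 per the authors' deposited table. In C57BL/6J it was not called, with an implied level of 456 normalized counts in 2-cell embryos and 471 in G2 zygotes. Among the pumps and exchangers, the secretory pathway pump gene Atp2c1 fell by 2.85 (SE 0.17, adjusted p = 2.2e-63) in B6CASTF1 and by 1.30 (SE 0.38, adjusted p = 0.0018) in C57BL/6J per the authors' deposited tables. That list had 1 of 8 genes higher and 2 lower in B6CASTF1, and 0 of 6 higher and 3 lower in C57BL/6J, which is 37.5% called in B6CASTF1 and 50% in C57BL/6J against 59.9% and 50.4% of all genes tested.

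**Figure D3:**
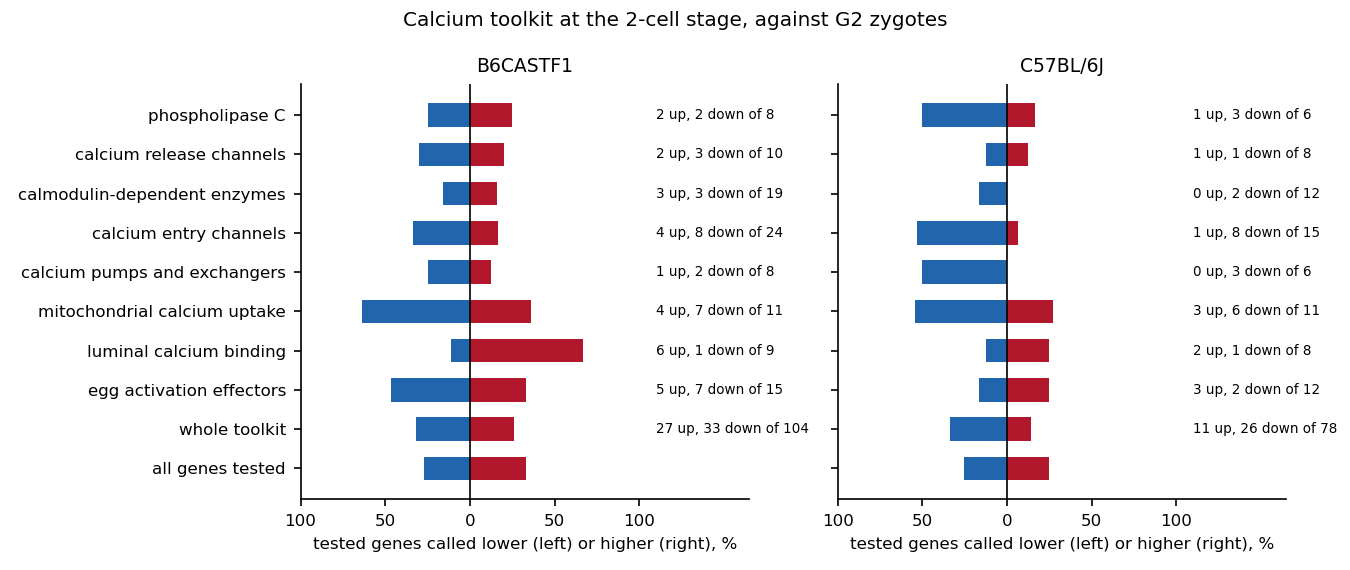
Percent of tested genes called lower (left of 0) or higher (right of 0) in 2-cell embryos against G2 zygotes for 8 lists of calcium signalling genes, their union and all genes tested, in B6CASTF1 (left) and C57BL/6J (right). The whole set has 27 genes higher and 33 lower of 104 in B6CASTF1, and 11 higher and 26 lower of 78 in C57BL/6J.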

How the data were processed

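Poly(A) RNA from small batches of eggs or embryos was copied by Smart-seq2 with oligo-dT priming, per the labels' protocols. The submitters' processing notes name build mm10 and the authors' tools (DESeq2, kallisto, Picard, TopHat and bcl2fastq) without their roles. According to their names, the 5 deposited tables are the authors' DESeq2 1.18.1 output. Per the file headers each row holds the mean normalized count (a signal that the authors averaged over the samples of a strain), log2 fold changes as fitted and shrunken, the SE, the Wald score and p-values before and after adjustment. The mean was identical in all deposited tables of a strain. No raw counts were analysed, and depth is unknown.

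Calls are the authors' adjusted p-values under 0.05. The implied level of a stage solves for stage levels that keep the authors' fold changes and average, weighted by samples, to the strain's mean. Strain differences were tested on the authors' SE, and that script was tested on simulated data. Lengths, coordinates and sequences came from GENCODE M21 on GRCm38, the build also called mm10, using the longest complete coding transcript. Member genes, lists and tests were chosen with earlier results of these data known. All 9 genes were named in each comparison. A further gene that the rule names, and 1 sequence, are not reported here. The called genes of each list with the smallest adjusted p could be named, at most 2 a comparison. A gene so named in 1 comparison is given in others too, and Calr3 and Ahcyl1 were named after their values were seen. For Calm2, Calm3 and Itpr1 the 3 genes nearest in pattern were named. Software was Python 3.11.15 with pandas 2.3.3, numpy 2.4.6, matplotlib 3.10.9 and scipy 1.17.1.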

Additional observations from a re-analysis of the deposited data

How the results depend on the processing

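No call of the 9 genes reversed under the alternatives run. With the SE raised 1.5 times the number of genes called in 2-cell embryos against G2 zygotes of C57BL/6J was 2 in place of 4, and with Bonferroni 1. With Bonferroni the number in G2 against G1 zygotes of B6CASTF1 was 2 in place of 4. Itpr1 lost its call there with the SE raised 1.5 times (adjusted p = 0.13). With Bonferroni, calls were lost by Itpr1 and Orai1 in that comparison, by Camk2g and Stim1 at the 2-cell step of B6CASTF1 and by Calm3, Cacna1h and Atp2b1 at that of C57BL/6J. The other 37 of 40 counts were within 1.5 times of the reported ones, and all 8 counts of strain differences stayed at 0. Recentring moved the 2-cell fold changes by 0.22 in B6CASTF1 and 0.20 in C57BL/6J. Whether samples beyond the labelled ones entered the authors' C57BL/6J fit is unknown, and no other sample number was tried there. How many 2-cell samples entered the authors' B6CASTF1 fit is unknown, and 2 was taken from the labels. With 3 in its place, which alters only B6CASTF1, Calm2 and Atp2b1 moved by more than the smallest SE of their fold changes at all 3 stages. Calm2 was then 1097, 5896 and 32988 normalized counts in G1 zygotes, G2 zygotes and 2-cell embryos of B6CASTF1, and Atp2b1 7049.9, 3106 and 335. These were the 6 that moved of 90 implied levels checked, and the 90 also hold those of both strains with shrunken fold changes. The share that moved with 3 samples is therefore larger than 6 of 90. Of 40 counts over the other calcium genes, a set of alternatives added after seeing the data, 14 moved by more than 1.5 times. No paired analysis was possible because the values used here are not per sample, and for the same reason leaving out each replicate in turn was not run. The larger SE of C57BL/6J limits what could be called there.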

Other observations

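Genes of mitochondrial calcium uptake were called at the 2-cell stage in 11 of 11 cases in B6CASTF1 (4 higher, 7 lower) and in 9 of 11 in C57BL/6J (3 higher, 6 lower). Of all genes tested, 59.9% were called at this step in B6CASTF1 (33.1% higher, 26.8% lower) and 50.4% in C57BL/6J (25.0% higher, 25.3% lower). Mcu, the pore of the calcium uniporter, fell by 3.05 (SE 0.23, adjusted p = 1.1e-38) in B6CASTF1 and by 3.42 (SE 0.42, adjusted p = 7.9e-15) in C57BL/6J against G2 zygotes in the authors' deposited tables. Its regulator Mcur1 fell by 3.17 (SE 0.23, adjusted p = 1e-42) in B6CASTF1 per the authors' deposited table and was called lower in C57BL/6J too. Vdac3, the gene called at fertilization in C57BL/6J, rose in G2 against G1 zygotes of B6CASTF1 by 1.16 (SE 0.17, adjusted p = 7.7e-10) per the authors' deposited table and was called lower at the 2-cell stage in both strains.

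Calcium-binding proteins inside membrane compartments such as the endoplasmic reticulum formed a further list. In 2-cell embryos against G2 zygotes, 6 of 9 were called higher and 1 lower in B6CASTF1. In C57BL/6J, 2 of 8 were called higher and 1 lower. The shares called were 77.8% in B6CASTF1 and 37.5% in C57BL/6J, above the share of all genes tested in B6CASTF1 and below it in C57BL/6J. Hspa5, a chaperone of the endoplasmic reticulum, rose by 4.25 (SE 0.21, adjusted p = 1.5e-93) in B6CASTF1 and by 3.11 (SE 0.41, adjusted p = 4.9e-13) in C57BL/6J per the authors' deposited tables. The gene called lower in both strains was Calr3, a calreticulin paralogue, named here after its values were seen. Among the effectors of egg activation 5 of 15 were higher and 7 lower at that step in B6CASTF1, and 3 of 12 higher and 2 lower in C57BL/6J. Called were 80% in B6CASTF1, above the share of all genes tested, and 41.7% in C57BL/6J, below it. Wee2, a kinase that holds the oocyte's prophase arrest and is needed for the egg to leave meiosis, fell by 4.11 (SE 0.14, adjusted p = 7.8e-175) in B6CASTF1, and Izumo1r, the egg's receptor for sperm, changed by -5.49 (SE 0.22, adjusted p = 6e-139) per the authors' deposited table, and both were called lower in C57BL/6J. Prkcd, a protein kinase C gene, rose by 7.33 (SE 1.58, adjusted p = 1.8e-05) in C57BL/6J per the authors' deposited table and was called higher in B6CASTF1.

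Over the 5 log2 fold changes, the genes nearest to Calm2 by Euclidean distance among 7490 genes were Rsl24d1 (1.01), Slc36a1os (1.15) and Cd9 (1.55). Cd9, a surface protein that the egg needs for fusion with sperm, rose in G2 against G1 zygotes and again at the 2-cell stage in both strains. Nearest to Calm3 were Gpr160 (0.822), Cmss1 (1.08) and Adamts2 (1.21). Nearest to Itpr1 were Chaf1a (0.277), Gnb1 (0.456) and Rnft1 (0.466). These distances are descriptions of fold changes that share stages.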
